A study of Mus musculus with 6 samples.

Results

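The 9 myelin and oligodendrocyte genes Mbp, Mog, Mag, Mobp, Cnp, Mal, Cldn11, Ugt8a and Myrf were read from the authors' deposited table of the mouse striatum by gene symbol, which found 9 of the 45777 genes it holds. All 9 passed the filter on low counts, among 17874 genes tested. The mice were 6-week-old offspring of the outbred ICR strain, with 3 animals per group. The sires of 1 group had received 15 mg/kg methylphenidate subcutaneously for 21 days, those of the other 10 mL/kg saline on the same schedule, and both were mated with females given no drug. Methylphenidate is a stimulant medicine that inhibits reuptake of dopamine and noradrenaline. The labels describe no treatment of the offspring, and list for each group 2 females and 1 male. The labels do not state the number of sires or litters, so animals of a group may be related, and the p-values speak only of variation among these 6 samples.

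Myelin is the stack of membrane that oligodendrocytes wrap around axons. In the striatum it lies mainly in the bundles of corticofugal fibres that cross the tissue between the projection neurons. Precursor cells leave the cycle, pass through a newly formed stage and then switch on the myelin genes together under the transcription factors Sox10 and Myrf. The basic proteins Mbp and Mobp hold the cytoplasmic faces of compact myelin together. Cldn11 forms tight junctions between its layers, and Mal is a membrane raft protein of the sheath. Cnp keeps cytoplasmic channels open in non-compact myelin, Mag sits on the innermost membrane facing the axon, and Mog on the outermost one. Ugt8a adds galactose to ceramide to make the main glycolipid of myelin, and Myrf encodes the factor that drives the mature programme.

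Some start regions are shown because Myrf is both a member and a factor that binds at other members, and because the members varied together across libraries. Of the 9 genes, 7 had an entry in the RefSeq promoter table (build GRCm38.p6, the assembly that mm10 names), with 9 start sites in all; Mbp and Myrf are named only. The 250 bases before each start were searched on both strands for CTGGCAC and CTGGTAC, forms of the Myrf motif, and for AACAAT and ACAAAG, forms of the motif shared by SOX factors. A Myrf form lay before a start of 3 of the 7 genes (Mog, Mag and Cnp), and 5.93% of the 32851 promoters in the table hold one. A SOX form lay before a start of 3 of the 7 genes (Mag, Mobp and Cnp), against 24% of all promoters. Both percentages are per promoter entry, whereas a gene was counted if any of its starts held a form, and Mag has 3 starts. Mobp held ACAAAG 6 times on the minus strand of the gene. It was the 1 entry of the 32851 with at least 6 copies, a threshold taken from Mobp itself after its sequence was seen. Capitals mark the Myrf forms in Mog, Mag and Cnp and the SOX form, read as its reverse complement, in Mobp. Bases inside an annotated exon were left off.
Mog, chr17:37023399-37023648, minus strand: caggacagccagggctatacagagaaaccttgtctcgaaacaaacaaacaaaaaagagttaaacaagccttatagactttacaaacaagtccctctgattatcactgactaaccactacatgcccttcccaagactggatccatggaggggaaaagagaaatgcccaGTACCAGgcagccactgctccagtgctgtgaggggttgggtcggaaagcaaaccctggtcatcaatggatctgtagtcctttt
Mag, chr7:30914923-30915172, minus strand: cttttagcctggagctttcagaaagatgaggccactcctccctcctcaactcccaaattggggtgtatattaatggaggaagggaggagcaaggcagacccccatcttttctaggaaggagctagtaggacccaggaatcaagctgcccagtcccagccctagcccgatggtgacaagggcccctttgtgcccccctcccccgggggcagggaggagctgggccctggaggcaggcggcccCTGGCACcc
Cnp, chr11:100574689-100574903, plus strand: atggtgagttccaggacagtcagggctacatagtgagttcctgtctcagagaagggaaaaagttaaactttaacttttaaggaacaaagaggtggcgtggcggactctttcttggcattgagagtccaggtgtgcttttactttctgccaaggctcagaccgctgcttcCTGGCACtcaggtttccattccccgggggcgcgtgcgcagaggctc
Mobp, chr9:120149492-120149706, plus strand: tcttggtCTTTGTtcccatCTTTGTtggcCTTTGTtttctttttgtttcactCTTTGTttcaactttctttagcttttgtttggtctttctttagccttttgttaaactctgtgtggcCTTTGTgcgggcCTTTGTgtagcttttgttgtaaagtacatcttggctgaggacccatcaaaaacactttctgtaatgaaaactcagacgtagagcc
The match began 83 bases before the start of Mog, 9 before the farthest upstream of the 3 listed starts of Mag and 81 before that of Cnp. A match is a description of these letters and does not show that a factor binds there.

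Total counts lay between 31360042 and 38844724 per library. The columns of the table name a group and an animal number that no label ties to a particular animal, so each library is named by its group and the number in its column: 2, 4 and 6 for methylphenidate-sired animals, 3, 4 and 5 for saline-sired ones. Levels are given as CPM, each count relative to its TMM-scaled library total, and libraries within a group stand in order of their numbers. As a check of the tissue, markers of striatal medium spiny neurons were high in every library, with 10 of 10 listed genes tested and a summed level between 6274 and 8030 CPM. Y-linked transcripts summed to 176 CPM in methylphenidate-sired library 4 and 180 CPM in saline-sired library 4, and to at most 0.213 CPM in the other libraries.

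The 9 genes took 0.549%, 0.706% and 0.744% of all counts in methylphenidate-sired libraries 2, 4 and 6, and 0.735%, 1.04% and 0.553% in saline-sired libraries 3, 4 and 5. Mbp alone made up between 55.0% and 56.6% of the members' counts in each library. The smallest count of any member was 2169 (Myrf in saline-sired library 5), with an exact Poisson 95% interval of 2079 to 2262 that covers counting error only.

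Mbp, on chromosome 18 (82475146 to 82585637, mm10), was at 3053, 3969 and 4212 CPM in methylphenidate-sired libraries 2, 4 and 6, against 3970, 5803 and 3079 CPM for saline-sired libraries 3, 4 and 5. Saline-sired library 4 was the highest, and the other saline-sired libraries lay within the methylphenidate-sired range. The group means were 3744 ± 611 CPM in the methylphenidate-sired and 4284 ± 1389 CPM in the saline-sired group (SD, n = 3 each), and the log2 fold change was -0.19 (standard error, SE, 0.22, with a 95% interval of -0.69 to 0.30; edgeR adjusted p = 0.823). Mobp, on chromosome 9 (120149707 to 120181484), was at 1059, 1473 and 1413 CPM in the methylphenidate-sired libraries against 1356, 2082 and 1133 CPM in the saline-sired ones. The groups overlapped, and the log2 fold change was -0.21 (SE 0.22, edgeR adjusted p = 0.805). In the GENCODE vM21 annotation, 79 bases of its exons (1.15%) are shared with the predicted gene Gm38642 on the same strand.

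Of the junction and raft proteins, Cldn11 (chromosome 3, 31149920 to 31164324) was at 202, 255 and 249.8 CPM in the methylphenidate-sired libraries, against 252, 357 and 190.0 CPM in the saline-sired ones. Mal (chromosome 2, 127633226 to 127656695) was at 335, 445 and 439 CPM in the methylphenidate-sired libraries, against 431, 639 and 314 CPM in the saline-sired ones. In both genes saline-sired library 5 was the lowest and saline-sired library 4 the highest, so that the whole methylphenidate-sired range lay inside the saline-sired one. Their log2 fold changes were -0.18 for Cldn11 (SE 0.20, edgeR adjusted p = 0.830) and -0.18 for Mal (SE 0.23, edgeR adjusted p = 0.847). The ratio of saline-sired library 4 over saline-sired library 5 was 2.03 for Mal and 1.88 for Cldn11.

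Cnp (chromosome 11, 100574904 to 100591729) was at 384, 455 and 475 CPM in the methylphenidate-sired libraries, against 517, 682 and 360.0 CPM in the saline-sired ones. Here 154 exon bases (4.23%) lie on those of Dnajc7, on the other strand, and no source used here says whether counting used strand. Mag (chromosome 7, 30899176 to 30914873) was at 198, 292 and 292 CPM in the methylphenidate-sired libraries, against 299, 379 and 224 CPM in the saline-sired ones. Mog (chromosome 17, 37010743 to 37023398) was at 83.0, 103 and 106 CPM in the methylphenidate-sired libraries, against 118, 147 and 83.1 CPM in the saline-sired ones. For each of these proteins of the sheath's edge, saline-sired libraries 3 and 4 were the highest and saline-sired library 5 lay beside the lowest methylphenidate-sired library. Mog had the most negative log2 fold change of the 9, -0.25 (SE 0.19, 95% interval -0.68 to 0.18, edgeR adjusted p = 0.728), followed by Cnp at -0.25 (SE 0.20) and Mag at -0.21 (SE 0.20), and none passed the test.

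Ugt8a (chromosome 3, 125865271 to 125938619), the enzyme of galactolipid synthesis, was at 129.6, 142 and 158 CPM in the methylphenidate-sired libraries, against 151, 175 and 110.0 CPM in the saline-sired ones. It had the smallest difference between the groups, with means of 143 ± 14.1 CPM in the methylphenidate-sired and 145 ± 33.0 CPM in the saline-sired group (SD, n = 3 each). The log2 fold change was -0.02 (SE 0.15, 95% interval -0.38 to 0.33, edgeR adjusted p = 0.980). Myrf (chromosome 19, 10208272 to 10240748) was at 70.4, 84.2 and 94.2 CPM in the methylphenidate-sired libraries, against 92.8, 118 and 69.6 CPM in the saline-sired ones. Its log2 fold change was -0.17 (SE 0.18, edgeR adjusted p = 0.811), close to those of the structural genes.

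**Figure D1:**
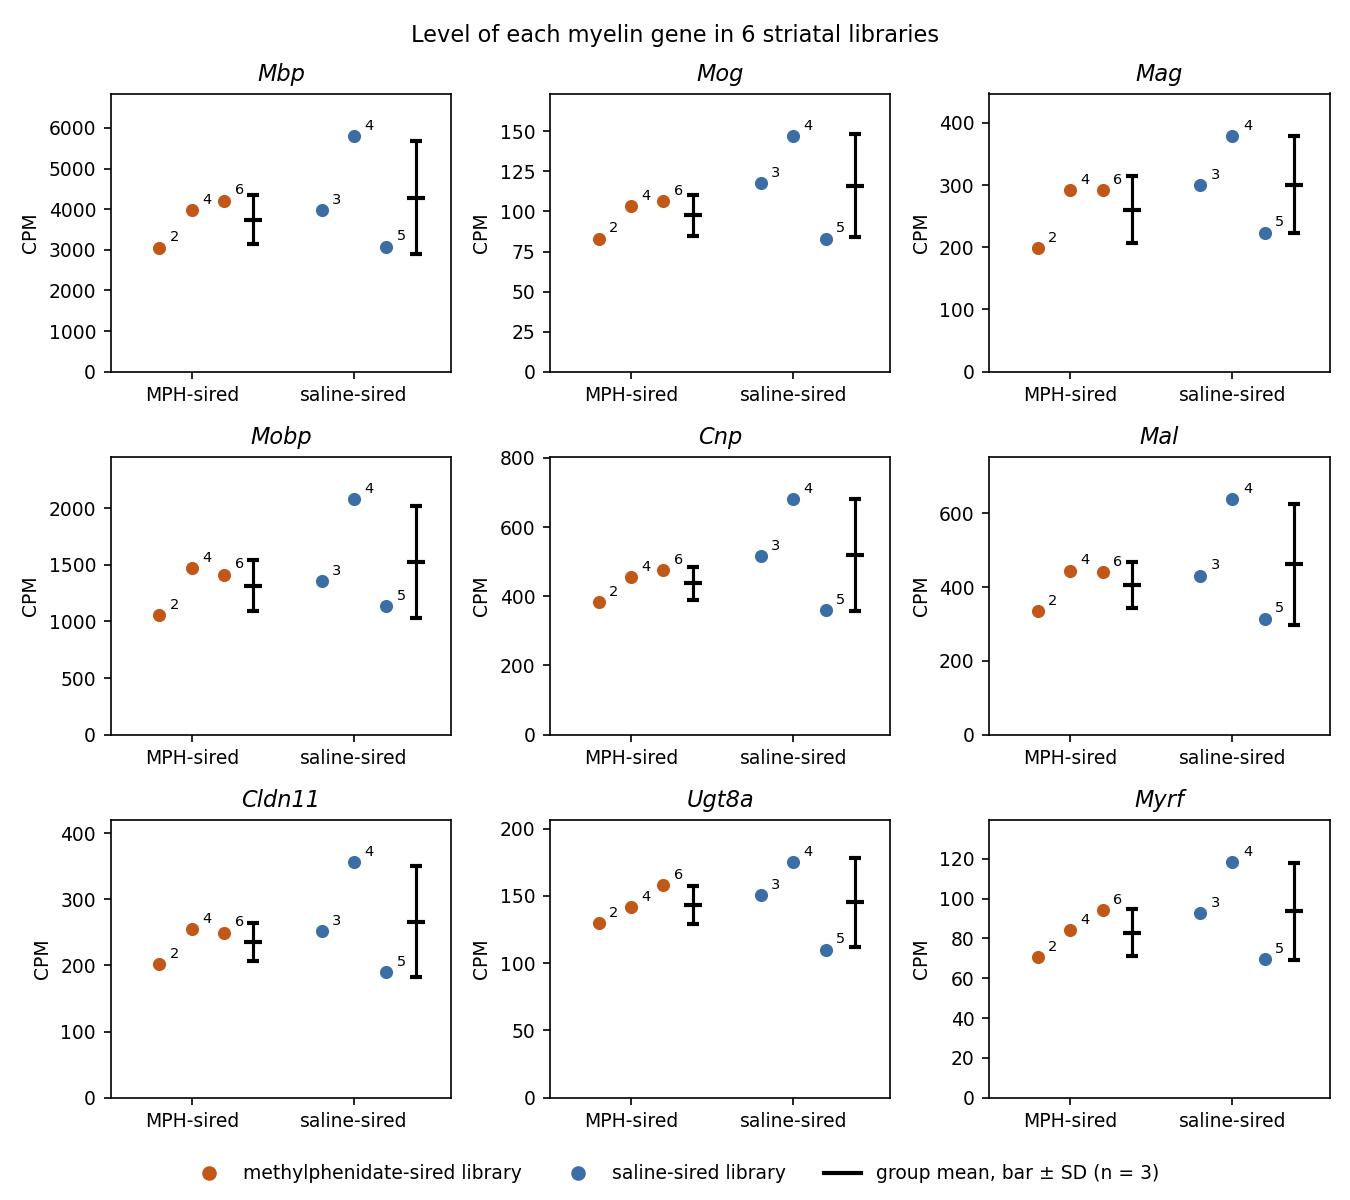
CPM of each of the 9 myelin genes, with 1 point per library labelled by its column number, methylphenidate-sired on the left and saline-sired on the right, and the group mean ± SD (n = 3) beside the points. The y axes start at 0, and in all 9 panels saline-sired library 4 is the highest point and the groups overlap.

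Divided by the length of the merged exons in GENCODE vM21, levels ran from 474 CPM per kilobase for Mbp, as the mean of the 6 libraries, through Mobp (207), Mal (156), Cldn11 (134) and Cnp (132) to Mag (68.9), Mog (62.7), Ugt8a (31.8) and Myrf (10.3). Mobp was above Mal, and Mal above Cldn11, in each of the 6 libraries, although each gene's range over libraries overlapped that of its neighbour. Cldn11 and Cnp stood close, at 126 ± 15.6 and 120.4 ± 13.2 CPM per kilobase in the methylphenidate-sired group and 142 ± 45.02 and 143 ± 44.2 CPM per kilobase in the saline-sired group (SD, n = 3 each), and Cnp was the higher in saline-sired library 3. Mag and Mog were both at 48.7 CPM per kilobase in methylphenidate-sired library 2, and Mag was the higher in the other libraries.

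The comparison of methylphenidate-sired with saline-sired offspring asked whether the sire's treatment was followed by a difference in striatal expression. None of the 9 members passed the test (edgeR quasi-likelihood, Benjamini-Hochberg over 17874 genes), 0 had an unadjusted p under 0.05, and 0 were called by DESeq2 or limma-voom. Over all genes tested, 0.0224% passed the adjusted test and 9.02% had an unadjusted p under 0.05. The groups did not overlap in 0 of the 9 members, against 14.8% of all genes. All 9 fold changes were negative (53% of all genes were), with a median of -0.19 beside -0.01 over all genes. That direction rested on saline-sired library 4, without which the median was 0.08 and 6 of the 9 values were positive. This was the library with Y-linked transcripts in its group, as methylphenidate-sired library 4 was in the other. The mean centred log2 CPM of the 9 genes was 0.02 in methylphenidate-sired library 4 and 0.50 in saline-sired library 4, and the part of sex in these values was not tested. Without saline-sired library 5 the median was -0.37, and without methylphenidate-sired library 2 it was -0.05. The interval for Mbp, -0.69 to 0.30, shows the size of difference that 3 libraries per group could not resolve.

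**Figure D2:**
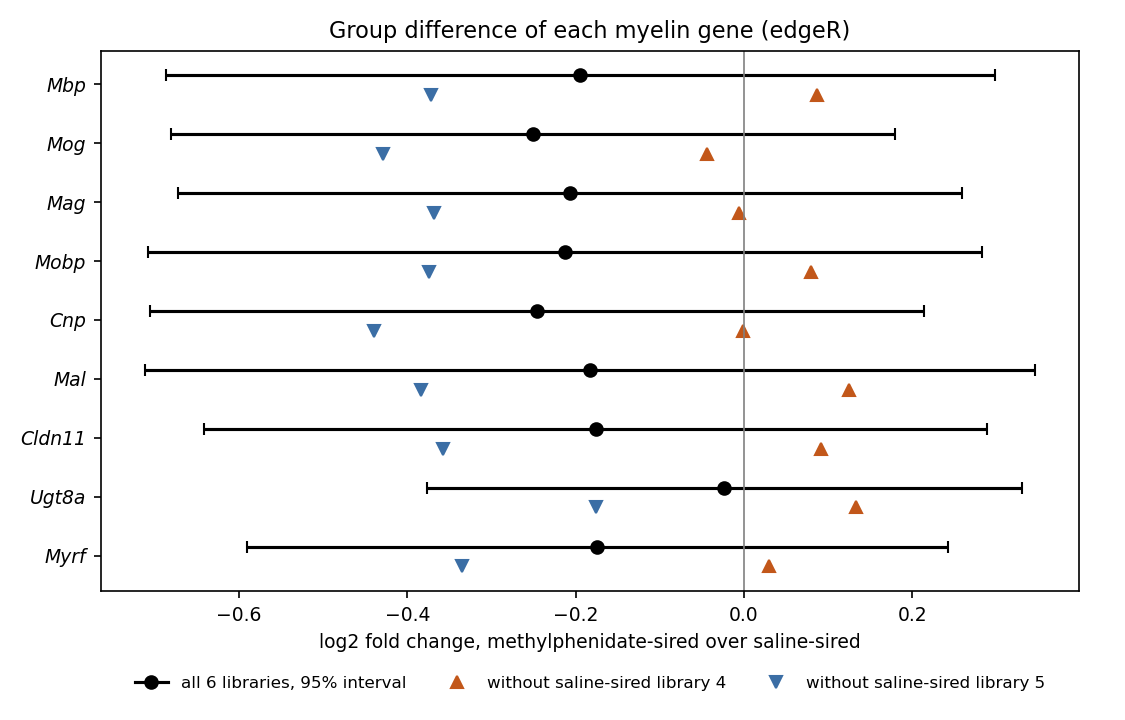
Log2 fold change of each member, methylphenidate-sired over saline-sired, from edgeR with its 95% interval (circles), and the value without saline-sired library 4 (upward triangles) or without saline-sired library 5 (downward triangles). Every interval spans 0, and the upward triangles lie between -0.04 (Mog) and 0.13 (Ugt8a).

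For each member the SD within groups, on the log2 CPM scale, was larger than the size of its log2 fold change. The ratio of the highest to the lowest library ran from 1.59 (Ugt8a) to 2.03 (Mal). Saline-sired library 4 was the highest for 9 of 9 members, and the lowest was methylphenidate-sired library 2 for 4 and saline-sired library 5 for 5. The median SD within groups was 0.35 on the log2 CPM scale over the members and 0.16 over all genes tested. Ranked by that SD, the members stood between the percentiles 68.7 (Ugt8a) and 81.5 (Mal) of all genes. Scored as the mean log2 CPM of the 9 genes, centred over the libraries, the methylphenidate-sired libraries 2, 4 and 6 were at -0.32, 0.02 and 0.07, and the saline-sired libraries 3, 4 and 5 at 0.07, 0.50 and -0.35. One library of each group was thus low, and saline-sired library 4 stood alone above the rest. In bulk RNA, fewer oligodendrocytes and less myelin RNA per cell cannot be told apart.

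The members kept nearly fixed proportions across these libraries. Over the 36 pairs of members, Pearson's r of log2 CPM across the 6 libraries had a median of 0.97 (lowest 0.84, highest 0.999), and Spearman's rho a median of 0.83. Leaving out saline-sired libraries 4 and 5, the farthest from the median score, gave a median r of 0.93 over 4 libraries. Of those, methylphenidate-sired library 2 had a score of -0.32 and the rest lay between 0.02 and 0.07. This r thus rests mainly on methylphenidate-sired library 2 and cannot show that the likeness is free of extreme libraries. The values of r and rho are descriptions over at most 6 libraries that all pairs share. After the mean of the 9 genes was subtracted in each library, the SD over libraries was 0.04 for Cldn11 and for Mbp, 0.05 for Myrf, and at most 0.08 for all members but Ugt8a. Subtracting that mean, which includes the gene itself, lowered the variance by 94.0% or more for 8 members and by 69.5% for Ugt8a. The r of Ugt8a with the mean of the other members was 0.91. Ugt8a stood 0.18 above the mean of the members in methylphenidate-sired library 2 and below it in saline-sired library 4 (-0.21), so that the enzyme varied less than the proteins of the sheath.

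**Figure D3:**
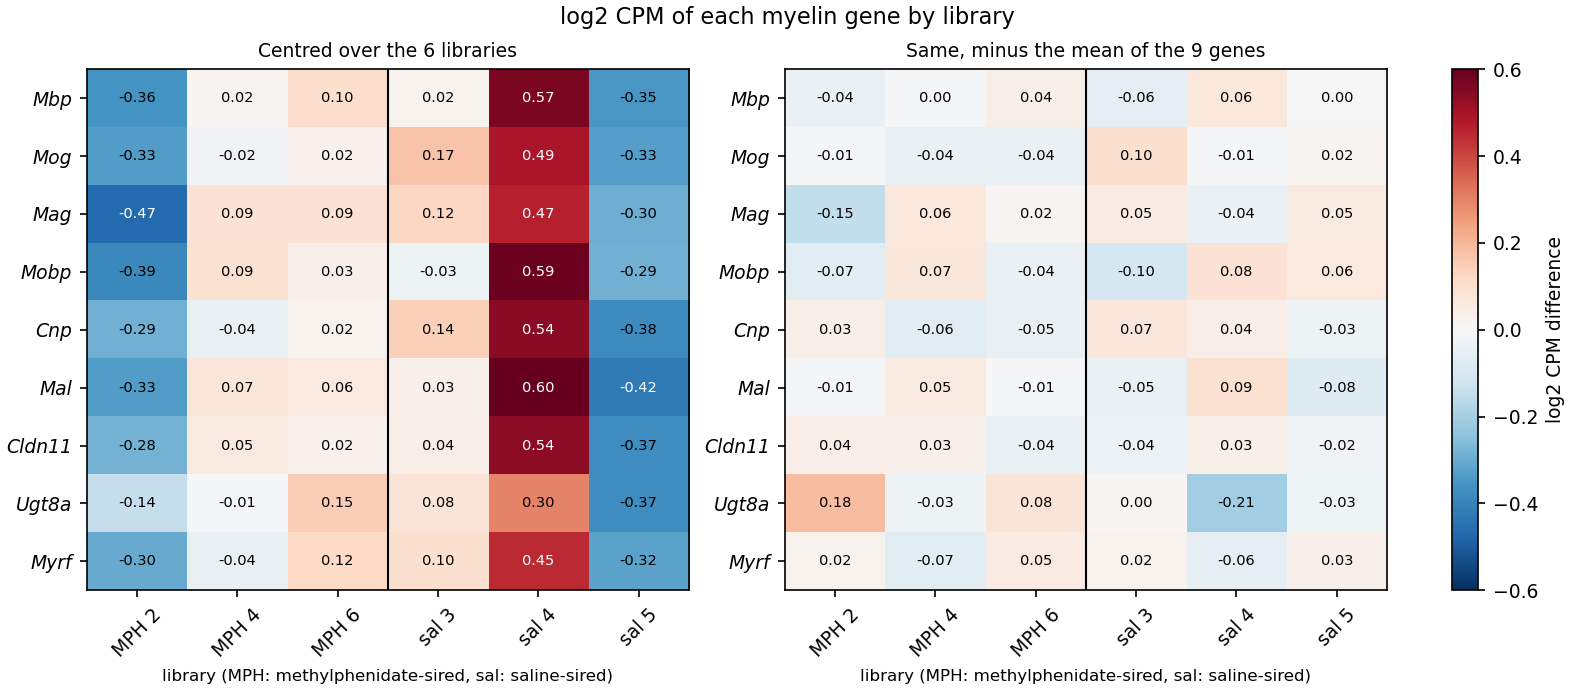
Log2 CPM of the 9 genes (rows) in each library (columns), methylphenidate-sired left of the line and saline-sired right of it; on the left each gene is centred over the 6 libraries, on the right the mean of the 9 genes in that library is also subtracted. Saline-sired library 4 is high in every row on the left, and on the right the values farthest from 0 are those of Ugt8a, 0.18 and -0.21.

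By list score, other genes of mature oligodendrocytes, from a list of 30, were likewise highest in saline-sired library 4. By that score they were lowest in methylphenidate-sired library 2 and saline-sired library 5, though not every single gene followed this order. Their list score was at -0.34, -0.08 and 0.12 in methylphenidate-sired libraries 2, 4 and 6, and at 0.09, 0.51 and -0.29 in saline-sired libraries 3, 4 and 5. None passed the edgeR test, 0 had an unadjusted p under 0.05, and 29 of 30 fold changes were negative (median -0.23, and 0.01 without saline-sired library 4). The lowest p values of the list were those of Car2, a carbonic anhydrase (-0.24, SE 0.11, edgeR adjusted p = 0.555), and Hapln2, a link protein of the nodal matrix (-0.34, SE 0.16, edgeR adjusted p = 0.584).

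Along the lineage, the span of the list score between the highest and the lowest library was 0.85 for the 9 members and also for the other mature genes, 0.64 for 10 oligodendrocyte transcription factors, 0.54 for 11 genes of newly formed oligodendrocytes and 0.14 for 10 genes of precursor cells. Precursor scores lay between -0.04 and 0.05 in the methylphenidate-sired libraries and between -0.09 and 0.04 in the saline-sired ones. Lists differ in size and in the level of their genes, and the spans were not tested against each other. A score also shrinks where the genes of a list move in opposite directions. Of the 10 precursor genes, 3 had a negative Pearson's r with the mean of the members (range -0.81 to 0.85). Single precursor genes differed up to 1.54-fold between libraries. None of the genes in these lists passed the edgeR test. An unadjusted p under 0.05 was found for 1 of the newly formed list (lower in the methylphenidate-sired group) and 0 of the others. Medians were -0.13 for the transcription factors, -0.08 for the newly formed list and 0.02 for the precursors. Among the transcription factors Olig2 had -0.29 (SE 0.22) and Zeb2 0.18 (SE 0.10). Among newly formed markers Tns3, which encodes a tensin, had -0.20 (SE 0.07, edgeR adjusted p = 0.476) and Bmp4 0.41 (SE 0.25). Among precursor genes Tnr had 0.17 (SE 0.08) and Pdgfra, the receptor for platelet-derived growth factor, -0.12 (SE 0.07).

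Of 8 genes listed as inhibitors of differentiation 0 passed the edgeR test, and 5 had an unadjusted p under 0.05 (3 higher in the methylphenidate-sired group, against 5.07% of all genes, and 2 lower, against 3.95%). Sox5, a SOX factor that holds precursors back, was at 22.6, 29.1 and 32.8 CPM in the methylphenidate-sired libraries, against 17.5, 15.3 and 21.1 CPM in the saline-sired ones. The groups did not overlap, the log2 fold change was 0.65 (SE 0.16; edgeR adjusted p = 0.419), and DESeq2 called it (DESeq2 adjusted p = 0.0180). Over the whole table DESeq2 called 180 genes, against 4 by edgeR. Lingo1, a neuronal and oligodendroglial receptor that restrains myelination, had 0.52 (SE 0.19, edgeR adjusted p = 0.475), with its lowest level, 95.7 CPM, in saline-sired library 4. Neurons also express both genes. Markers of cortical excitatory neurons were together lowest in that library. For 8 of the 10 markers every methylphenidate-sired library was above every saline-sired one. Over all genes, 14.8% had groups that did not overlap, in either direction. The part of cortical neurons in the values of Sox5 and Lingo1 was not tested.

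Myelin lipids were followed in a pair of lists. Of 12 genes that make or break down galactolipids, the partners of Ugt8a, 0 passed the edgeR test, 0 had an unadjusted p under 0.05 and 10 fold changes were negative (median -0.12). Cers2, the ceramide synthase for very long chains, had -0.24 (SE 0.16) and the elongase gene Elovl7 -0.17 (SE 0.14). Cholesterol synthesis had another pattern. Of 17 genes 0 passed the edgeR test, and 16 fold changes were positive (median 0.15). An unadjusted p under 0.05 was found for 6, all higher in the methylphenidate-sired group, against 5.07% of all genes. Hmgcs1, a synthase early in the pathway, was at 270.4, 262 and 271 CPM in the methylphenidate-sired libraries, against 238, 229.6 and 223 CPM in the saline-sired ones. Its groups did not overlap, and the log2 fold change was 0.22 (SE 0.06; edgeR adjusted p = 0.420; DESeq2 adjusted p = 0.0442). The score of this list was between 0.06 and 0.12 in the methylphenidate-sired libraries and at 0.02, -0.15 and -0.12 in saline-sired libraries 3, 4 and 5. It was lowest in saline-sired library 4, where the myelin score was highest. It was nearly as low in saline-sired library 5, where the myelin score was lowest. Neurons and astrocytes make cholesterol too, and the cells behind the cholesterol score were not tested.

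Of 13 growth factors and receptors of oligodendrocytes 0 passed the edgeR test and 1 had an unadjusted p under 0.05 (median -0.05). It was Tnfrsf21, a death receptor that limits oligodendrocyte maturation, at 0.17 (SE 0.07, edgeR adjusted p = 0.550), beside Erbb2 at -0.42 (SE 0.25). Of 9 genes of the axon-glia junction 0 passed and 1 had an unadjusted p under 0.05 (median 0.01). It was Cntn1, an axonal contactin of the paranode, at 0.19 (SE 0.06, edgeR adjusted p = 0.457), beside the axonal potassium channel gene Kcna2 at 0.12 (SE 0.07).

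Markers of other cells were set beside the myelin score. Cortical excitatory neuron markers (10 of 10 tested) summed to 967, 1024 and 1146 CPM in methylphenidate-sired libraries 2, 4 and 6, and to 623, 356 and 805 CPM in saline-sired libraries 3, 4 and 5. The library with the most myelin RNA, saline-sired library 4, thus had the least cortical RNA. Saline-sired library 5 was low in myelin and the highest of its group in cortical markers. In the methylphenidate-sired group the order differed, since library 6 was the highest in both. The cortical list had a median of 0.86, and 0 of 10 passed the edgeR test. An unadjusted p under 0.05 was found for 8, all higher in the methylphenidate-sired group, against 5.07% of all genes. Among them Nptx1 had 0.69 (SE 0.15) and Neurod2 0.95 (SE 0.27). Astrocyte scores were at -0.19, 0.09 and 0.06 in the methylphenidate-sired libraries and at -0.04, 0.26 and -0.18 in the saline-sired ones. By score, saline-sired library 4 was again the highest (median fold change 0.01, 0 of 10 at an unadjusted p under 0.05). By summed level it was not, at 4527 CPM against 4582 and 4637 CPM in methylphenidate-sired libraries 2 and 4. Gfap, the astrocyte filament gene, had -0.37 (SE 0.18) and the glutamate transporter gene Slc1a2 0.11 (SE 0.09). The part of these cells in the myelin values was not tested.

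Microglia markers differed little between libraries, with summed levels of 362 to 408 CPM in the methylphenidate-sired and 363 to 413 CPM in the saline-sired group (median fold change -0.03, 0 of 10 at an unadjusted p under 0.05; C1qc -0.18, SE 0.09, and Aif1 0.45, SE 0.31). Medium spiny neuron markers summed to between 6274 and 6883 CPM in the methylphenidate-sired libraries and between 7390 and 8030 CPM in the saline-sired ones. Their median was -0.21, with 0 past the edgeR test (Scn4b -0.29, SE 0.07, and Tac1 -0.32, SE 0.08). An unadjusted p under 0.05 was found for 8 of 10, all lower in the methylphenidate-sired group, against 3.95% of all genes. These markers were about level in saline-sired libraries 4 and 5, whose myelin scores were the highest and the lowest of all. Vascular and meningeal markers summed to between 143 and 178 CPM in the methylphenidate-sired libraries and between 141 and 177 CPM in the saline-sired ones (median -0.09, 1 of 8 at an unadjusted p under 0.05; Dcn -0.69, SE 0.19, and Lum -0.53, SE 0.30).

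Choroid plexus markers, which belong to tissue next to the striatum, summed to 36.5, 85.1 and 54.6 CPM in the methylphenidate-sired libraries, against 2077, 363 and 30.3 CPM in the saline-sired ones. Their peak, in saline-sired library 3, was not that of the myelin genes. The median fold change of this list was -3.47, and -1.52 without saline-sired library 3. An unadjusted p under 0.05 was found for 7 of 8, all lower in the methylphenidate-sired group, against 3.95% of all genes. None passed the edgeR test (Aqp1 -3.31, SE 0.99, and Sostdc1 -3.63, SE 1.09). Ependymal markers were also highest in saline-sired library 3 (median -0.84). Of these, 3 of 6 were lower at an unadjusted p under 0.05, against the same 3.95%. The edgeR test called 0 of them (Dynlrb2 -1.11, SE 0.35, and Tekt1 -1.14, SE 0.46). Schwann cells make myelin in peripheral nerve with some of the same genes, Mbp and Mag among them. Of the Schwann cell list 5 of 6 genes were tested and 0 passed (median -0.14, 1 at an unadjusted p under 0.05, Ncmap at -1.04, SE 0.32, from 13 to 45 counts per library; Egr2, also an activity gene of neurons, had 0.96, SE 0.58).

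**Figure D4:**
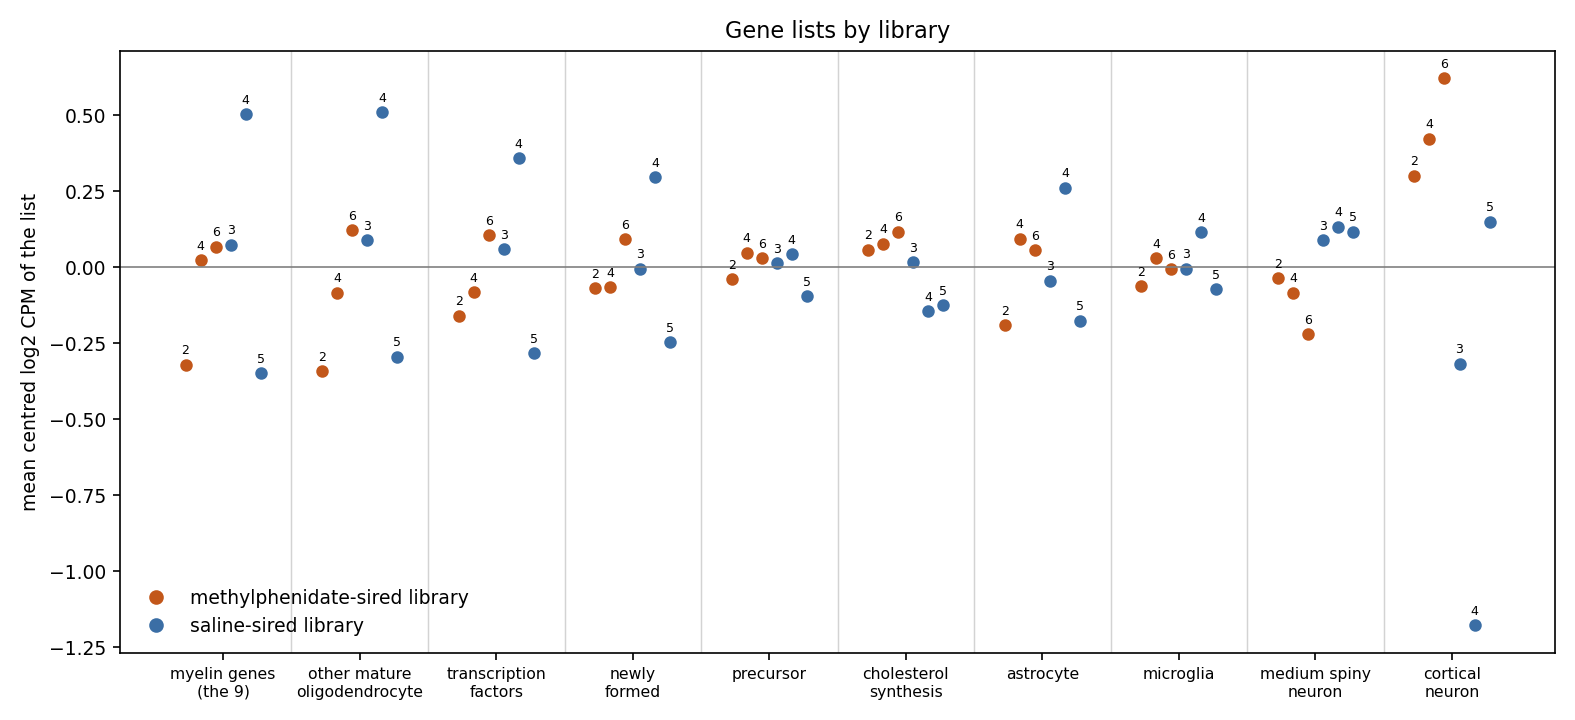
Mean centred log2 CPM of 10 gene lists (y axis) in each library, with methylphenidate-sired points left of saline-sired ones and labelled by column number. Myelin genes and other mature oligodendrocyte genes are both highest in saline-sired library 4 and both span 0.85, precursor genes span 0.14, and cortical neuron markers are lowest in saline-sired library 4.

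The genes whose levels over the 6 libraries were most like the mean of the members were sought among 8337 genes whose mean log2 CPM reached 4, leaving out the members and predicted genes. Among the 10 with the highest Pearson's r were Ado, Fth1, Pim3, Plekhh1, Pdxdc1, Plaat3, Mtmr10, Inppl1 and Sbds, with r between 0.98 and 0.996 over 6 libraries. Plekhh1 is in the list of mature oligodendrocyte genes. Fth1, the heavy chain of the iron store ferritin, was at 1028, 1174 and 1222 CPM in the methylphenidate-sired libraries, against 1246, 1435 and 1028 CPM in the saline-sired ones. Its highest library was 1.40 times its lowest, less than the ratio of any member, and the named genes ranged from 1.21 (Inppl1) to 1.82 (Plaat3) in that ratio. Of the list of 30 mature genes, 19 had an r of at least 0.9, against 2.08% of the other genes tested, and 9 were among the first 100. An r of at least 0.9 was also found for 5 of 10 oligodendrocyte transcription factors and 5 of 12 galactolipid genes. Markers of other cells reached it too, with 4 of 10 for astrocytes and 2 of 10 for microglia. None of 10 precursor genes and none of 17 cholesterol genes reached 0.9. A negative r was found for 12 of the 17 cholesterol genes and 10 of 10 cortical markers. The same held for 9038 of the 17865 tested genes other than the members. All values of r rest on the same 6 libraries and are given as a description.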

How the data were processed

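RNA-seq counts from the striatum of 6 mice, 3 per group, were analysed. Per the submitters' processing notes, bcl2fastq 2.20.0, Trimmomatic, HISAT2 2.1.0 and StringTie 2.1.3b were used with build mm10; no source used here gives their settings, the strandedness or the treatment of reads with several matches. In the authors' deposited table are whole-number read counts per gene, not normalized. Its 12 other per-sample columns (FPKM and TPM, per the file headers) were not used, since tests were run on counts. Column names identify the group but no particular labelled animal. The sex of a library was not assigned from its Y-linked transcripts, and sex was not fitted as a covariate.

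Counts were tested with edgeR 4.0.16 (quasi-likelihood, TMM scaling, filterByExpr, Benjamini-Hochberg at 0.05 over 17874 genes) in R 4.3.3; log2 fold changes are methylphenidate-sired over saline-sired, and SE values were derived from the F statistic. Log2 CPM used a prior count of 2. Scores are means of centred log2 CPM. Alternatives were RLE and upper-quartile scaling, DESeq2 1.42.0, limma-voom 3.58.1, other filters and leaving out each library. The script was tested on simulated data. Near-identical copies of the members were sought with blastn 2.17.0 in GENCODE vM21 transcripts, at 95% identity over 200 bases, and no other gene matched. The rule for named genes took all members, from each list the called genes or, failing any, the 2 with the lowest p, and the 10 genes most like the members; some of these genes are not reported here. The members and the 17 other lists were chosen with earlier results of these data known.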

Additional observations from a re-analysis of the deposited data

How the results depend on the processing

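Under 12 alternatives (other scaling, tools and filters, and each library left out) the 9 members gave 108 values, of which 0 passed the test (lowest adjusted p = 0.244, Mog without saline-sired library 5). The number of genes called over the whole table was 180 with DESeq2 and 1 with at least 10 counts in every library, against 4; the cause was not tested for DESeq2, and the stricter filter left 16306 genes. Leaving out 1 library at a time gave 1 (without methylphenidate-sired library 6) to 4 calls and a median member fold change between -0.37 and 0.08.
Direction turned for 6 members without saline-sired library 4, and for Ugt8a also without methylphenidate-sired library 2. Over the 6 sets of 5 libraries, log2 fold changes ran from -0.37 to 0.087 for Mbp, -0.37 to 0.080 for Mobp, -0.38 to 0.13 for Mal, -0.36 to 0.092 for Cldn11, -0.18 to 0.13 for Ugt8a and -0.34 to 0.030 for Myrf. For other named genes that turned they ran from -0.34 to 0.0072 for Plekhh1, -0.22 to 0.0050 for Fth1, -0.18 to 0.017 for Ado, -0.14 to 0.016 for Pim3, -0.34 to 0.044 for Plaat3, -0.20 to 0.059 for Mtmr10, -0.11 to 0.035 for Sbds and -0.0018 to 0.67 for Aif1. Mog, Mag and Cnp stayed below 0 in all 12 alternatives, but barely so for Mag and Cnp. Without saline-sired library 4 their values were -0.043 for Mog, -0.0057 for Mag and -0.0010 for Cnp. DESeq2 also called Tac1, Scn4b, Neurod2 and Nptx1. No paired analysis was possible because the columns do not carry the replicate numbers of the labels. With 3 libraries per group, differences smaller than the intervals given could not be resolved.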
